A study of Mus musculus with 8 samples.

Results

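Cryaa and Cryab encode the alpha crystallins, and chromatin accessibility was examined here across each gene body and the 50 kb on either side of it. The members were these 2 genes of the 21000 protein-coding genes with a curated RefSeq transcript, and they were taken by name. Every peak that overlapped either window by at least 1 bp was kept, which gave 167 of 345333 peaks. Accessibility had been measured by ATAC-seq, in which the transposase Tn5 inserts sequencing adaptors into exposed DNA, so that fragments pile up at open chromatin. Lens epithelium and lens fibers were dissected from CD1 mice, an outbred strain, with no engineered allele or treatment named for these samples, at E14.5, before birth, and at P0.5, just after it. Each of the 4 groups had 2 libraries, for 8 in all, and each library was made from cells of several pooled lenses. The peaks had been called on the pooled libraries of a group, so that 1 list stood for each group, no value belonged to a single library, and neither a spread between replicates nor a test was possible.

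Alpha crystallins are small heat shock proteins. They bind partly unfolded proteins and keep them soluble, and they make up a large part of the protein of lens fibers, the elongated cells that fill the lens and in time lose their nuclei. Cryaa, alpha A-crystallin, is used almost exclusively in the lens, while Cryab, alpha B-crystallin, is also abundant in heart, skeletal muscle and brain and is induced by stress. Both genes are already active in lens epithelium, the single layer of dividing cells that supplies the fibers, and their promoters are known targets of Pax6, large Maf proteins, Sox factors and Creb1 in the lens.

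The longest list, that of E14.5 fiber, held 123743 peaks and the shortest, that of P0.5 epithelium, 58592, and the lists covered from 18.5 to 61.3 Mb of the genome. Unless stated, values are in the order E14.5 epithelium, E14.5 fiber, P0.5 epithelium, P0.5 fiber. A larger list can place a peak over more of any gene, so values were set beside those of all genes in the same list. Fold enrichment at the summit, the point of highest signal in a peak, was compared between lists only as a rank within its own list. The rank was counted from the strongest peak and divided by the number of peaks in that list, in percent. All fold enrichments of a list were whole multiples of 1 step, within 0.02 of a step, as a number of overlapping fragments divided by a constant would be. The step was 0.383, 0.297, 0.425 and 0.463. Fold enrichments and numbers of steps given below describe each list alone, since depth is unknown from these lists. A gene was counted as having a promoter peak where a peak lay within 2 kb of a start site, which held for 64.6 to 71.2% of all genes, so that counts over short marker lists say little. Promoters of 5 of 5 lens epithelium markers and 5 of 6 lens fiber markers held a peak in every list, the exception being Dnase2b, the nuclease that degrades fiber cell nuclei. Of the other cell types, endothelial promoters held a peak in 2 to 4 of 4 genes, blood promoters in 0 to 2 of 3, retinal promoters in 0 to 3 of 3, muscle promoters in 1 to 3 of 3, mesenchymal promoters in 3 of 3, and keratins of surface ectoderm and cornea in 0 of 3. In Ptprc and Krt12, which define leukocytes and corneal epithelium, no list had a promoter peak. The part of other cells in the values below was not tested.

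The promoter of Cryaa is shown first, since it lay inside a peak, wholly or in part, in every list. Of the members, 1 of 2 had an entry in the RefSeq promoter table (GRCm38). Cryaa occupies chr17:31677931-31681730 on the plus strand, 3800 bp with 4 exons, and its 3 curated transcripts share 1 start site. The 250 bp before that site, chr17:31677681-31677930, plus strand, have a GC content of 54.4%. Capitals mark matches to the motifs searched on both strands.
Cryaa promoter: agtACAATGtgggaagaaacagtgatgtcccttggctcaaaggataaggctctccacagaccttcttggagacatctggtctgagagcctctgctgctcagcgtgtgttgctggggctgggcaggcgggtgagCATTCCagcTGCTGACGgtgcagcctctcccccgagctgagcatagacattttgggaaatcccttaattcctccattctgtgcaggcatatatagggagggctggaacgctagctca

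The first capitals are the Sox motif ACAATG on the plus strand, which 10.7% of 32841 RefSeq promoters of the same length hold. The next are the Tead motif GGAATG read on the minus strand, which 12.6% hold. The last run joins the MARE core TGCTGA, a sequence that Maf proteins recognise and that 16.1% hold, with the overlapping CRE core TGACG, which 17.8% hold and Creb1 recognises. The other motifs searched (ACAAAG for Sox, GAANNTTC for heat shock factors, TGANTCA for AP-1, TAATCC for Pitx, AGGTCA for retinoid receptors, TATAAA for the TATA box and CCGGAAG for Ets factors) had no match in these 250 bp. Only exact strings were searched, so the letters tatata near the end of the printed sequence were not counted as a TATA box. The Tead, MARE and CRE matches lay inside a peak in all 4 lists. The Sox match lay inside a peak in E14.5 epithelium, E14.5 fiber and P0.5 fiber but outside the narrower peak of P0.5 epithelium. Such matches are short and common, and they are descriptions of the sequence only.

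Cryaa was covered by peaks from end to end in every list but that of P0.5 epithelium. Peaks took up 100% of its gene body in the lists of E14.5 epithelium, E14.5 fiber and P0.5 fiber, but 26.2% in that of P0.5 epithelium. Over the 19556 genes of 1 kb or longer the medians were 2.55, 4.06, 1.39 and 1.29%. Full coverage was shared by 4 genes in E14.5 epithelium, 36 in E14.5 fiber and 2 in P0.5 fiber, Cryaa counted in each, and 408 genes stood at or above its 26.2% in P0.5 epithelium. Named after their values were seen, the others at 100% were Aprt, H1f10 and Tssk6 in E14.5 epithelium and Hes5, a Notch target, in P0.5 fiber, and at 3800 bp Cryaa was the longest gene fully covered in either list. Only Cryaa, 1 of 19556 genes, was fully covered in all 3 of these lists together.

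**Figure D1:**
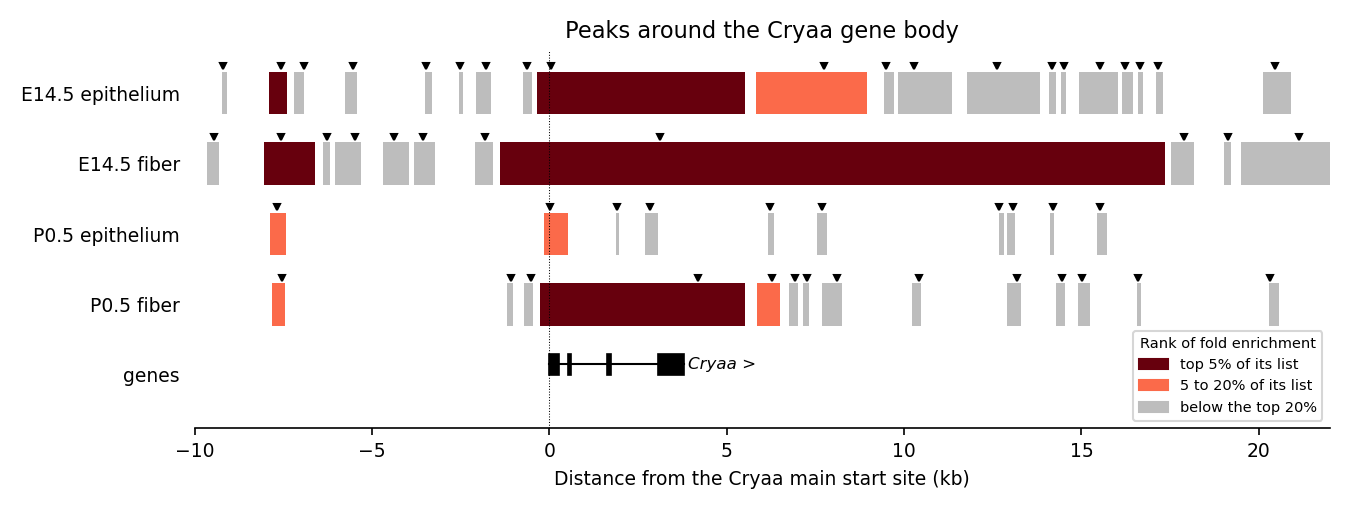
Peaks around the Cryaa gene body. The horizontal axis gives the distance from the start site in kb, each row is 1 pooled list, bars are peaks drawn to scale and coloured by rank of fold enrichment within the list, triangles are summits, and black boxes are exons. A single peak spans the gene in E14.5 epithelium, E14.5 fiber and P0.5 fiber, whereas P0.5 epithelium has 3 separate peaks over it.

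One peak lay over Cryaa in each of the 3 lists that covered it fully. In E14.5 fiber this peak was 18737 bp wide, chr17:31676538-31695274, and reached from 1.39 kb before the start site to 17.3 kb beyond it. Its counterpart in E14.5 epithelium was 5855 bp wide and that in P0.5 fiber 5762 bp. Both of these ended almost at the same base, 31683445 and 31683443, and both were followed by a further peak after a gap of 317 or 330 bp that is masked as a repeat in the reference over 100% of its length. The peak of E14.5 fiber ran unbroken over the same masked bases. Other gaps within its 18737 bp were masked over 0 to 81.8% in E14.5 epithelium and 0 to 51.5% in P0.5 fiber. Within the 18737 bp as a whole 21.9% is masked, and reads from a repeat can be lost when they map to many places. The part of mapping in these edges was not tested.

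In P0.5 epithelium 3 peaks lay over Cryaa. The peak at the start site was 678 bp wide with its summit 10 bp inside the 5′ UTR, and the others, of 95 and 365 bp, had their summits in introns 1.90 and 2.84 kb from the start. Exon 1 was covered over 100% of its 259 bp, exon 2 over 20.7%, exon 3 over 0% and exon 4 over 0.134% in this list, against 100% of every exon in each of the others. Within the gene, 73.8% of the bases were inside peaks in all lists but this one. The list also had the least coverage just outside the gene, where the 2 kb before it were covered over 47.8, 89.7, 7.1 and 32.5% and the 2 kb after it over 85.8, 100, 0 and 85.6%. With these flanks included, the gene was covered over 14.6% in P0.5 epithelium.

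The summit of the peak over Cryaa differed in place between the lists. It lay 42 bp from the start site, in the 5′ UTR, in E14.5 epithelium and 10 bp from it in P0.5 epithelium. In E14.5 fiber it lay 3.13 kb from the start, in a coding exon, and in P0.5 fiber 4.19 kb from the start, beyond the end of the gene. The summits of both epithelial lists were thus at the promoter and those of both fiber lists at the 3′ end of the gene, each from 1 pooled list.

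By rank, the best peak of Cryaa (over the gene body or within 2 kb of the start site) was in the top 5% of 3 lists. It was number 3726 (3.73%) of the E14.5 epithelium list, number 283 (0.229%) of E14.5 fiber, number 10535 (18.0%) of P0.5 epithelium and number 2406 (3.82%) of P0.5 fiber. A best peak in the top 5% was found for 25.5, 31.3, 15.2 and 16.3% of all genes in these lists, so that this alone did not set Cryaa apart. The call was lost in P0.5 fiber for peaks with a q value under 0.001, at 7.81%, and in E14.5 epithelium with equal numbers of peaks, at 6.36%, while E14.5 fiber was then at 0.483%. In E14.5 fiber 317 of 21000 genes had a best peak as strong or stronger. Expressed in steps, the summit of Cryaa stood at 136, 402, 30 and 28 steps in the order above, and with so few steps at P0.5 many peaks were tied, 485 with the peak of P0.5 epithelium and 255 with that of P0.5 fiber, each number including the peak itself.

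The sequence at the summit of E14.5 fiber is shown because it carried the strongest peak of the window, at a fold enrichment of 119. It begins in the last intron of Cryaa and runs on into the coding part of exon 4, chr17:31680958-31681157 on the plus strand (GRCm38), with a GC content of 60.5%.
Cryaa summit of E14.5 fiber: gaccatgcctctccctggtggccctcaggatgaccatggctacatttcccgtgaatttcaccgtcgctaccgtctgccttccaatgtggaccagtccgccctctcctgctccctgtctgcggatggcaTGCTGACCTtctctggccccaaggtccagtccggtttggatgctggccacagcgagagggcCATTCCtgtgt

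Capitals mark a MARE core on the plus strand, the retinoid receptor motif AGGTCA on the minus strand that overlaps it, and a Tead match on the minus strand. All 3 lay inside peaks in E14.5 epithelium, E14.5 fiber and P0.5 fiber and outside peaks in P0.5 epithelium. Of the 200-bp sequences around all summits of E14.5 fiber, 24.7% held TGCTGA, 13.6% held AGGTCA and 12.5% held GGAATG.

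**Figure D2:**
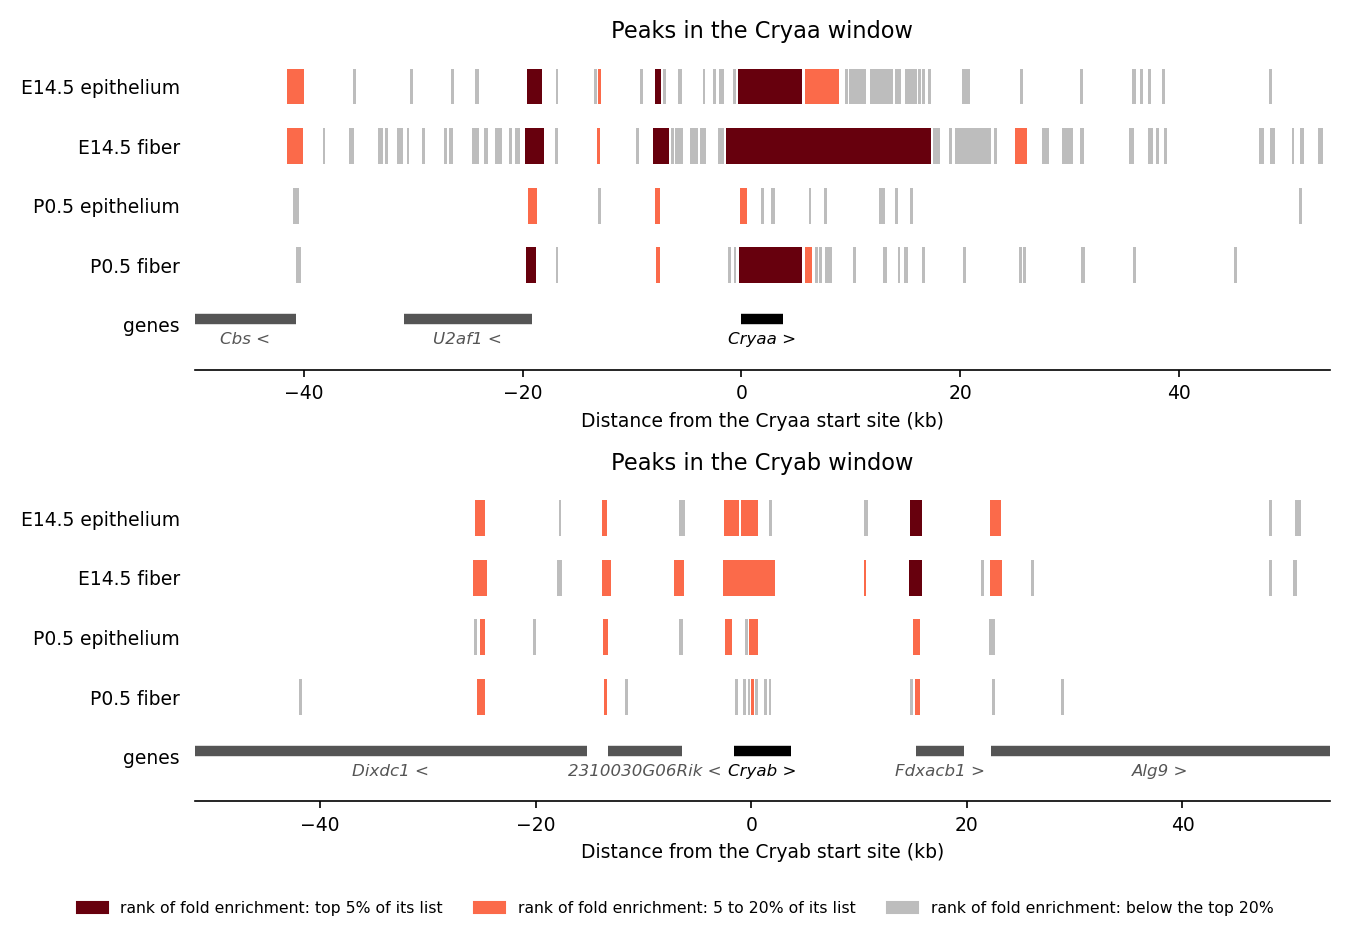
Peaks in the windows of both genes. The horizontal axes give the distance from the main start site in kb, each row is 1 pooled list, and colours give the rank of fold enrichment within the list; the narrowest peaks are drawn at a fixed minimum width, and Hspb2 and 1110032A03Rik, which overlap or adjoin drawn genes, are left out. Peaks of the Cryaa window extend far beyond the 3′ end of the gene in both E14.5 lists, and of the 17 merged regions of the Cryab window 5 were called in all 4 lists.

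Peaks covered more of the 20 kb beyond the 3′ end of Cryaa than of the 20 kb before its start in every list but P0.5 epithelium. Of the 20 kb after the gene, peaks took up 57.9% (E14.5 epithelium), 89.9% (E14.5 fiber), 5.97% (P0.5 epithelium) and 24.9% (P0.5 fiber). The medians over all genes were 1.2, 2.24, 0 and 0%, and 7, 4, 2387 and 88 of 21000 genes had as much coverage or more. Before the gene, the same length was covered over 22, 41.0, 7.92 and 10.6%, against medians of 2.44, 3.3, 1.5 and 1.1%. No protein-coding gene with a curated transcript lies in the 50 kb after Cryaa, while U2af1, a splicing factor gene, and Cbs, the gene of cystathionine beta-synthase, lie before it and are read in the opposite direction.

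The window of Cryaa as a whole, 103800 bp, held 36, 44, 14 and 22 peaks. A wide peak counts once, so the covered share describes the window better than the number of peaks. It was 22.7, 41.4, 4.28 and 11.9%, against medians of 2.44, 3.68, 1.45 and 1.21% over the windows of all genes. Of 21000 windows, 112, 20, 2355 and 220 were covered as much or more, that of Cryaa counted in each. At a q value under 0.001, 33, 37, 12 and 14 of the peaks remained. With equal numbers of peaks in each list the window held 26, 16, 14 and 20, so that E14.5 fiber no longer had the most.

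A region at -7.57 kb from the Cryaa start site was called in all 4 lists and is shown because its summits agreed within 139 bp. It ranked at 2.21, 1.28, 13.9 and 6.31%, higher than the best peak of Cryaa itself in both epithelial lists and lower in both fiber lists. Its peak was 505, 1439, 433 and 372 bp wide. The 200 bp around the summit of E14.5 fiber, chr17:31670258-31670457 on the plus strand (GRCm38), lie between genes, have a GC content of 60.5% and were chosen after the values were seen.
Cryaa upstream region: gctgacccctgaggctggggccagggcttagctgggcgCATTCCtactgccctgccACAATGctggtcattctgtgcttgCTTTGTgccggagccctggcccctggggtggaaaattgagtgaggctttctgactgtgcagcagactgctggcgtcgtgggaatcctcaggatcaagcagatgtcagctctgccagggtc

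Capitals mark a Tead match on the minus strand, the Sox motif ACAATG on the plus strand and the Sox motif ACAAAG on the minus strand, and all 3 lay inside a peak in every list. Around all summits of E14.5 fiber, ACAATG was found in 11.4%, ACAAAG in 16.8% and GGAATG in 12.5%.

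**Figure D3:**
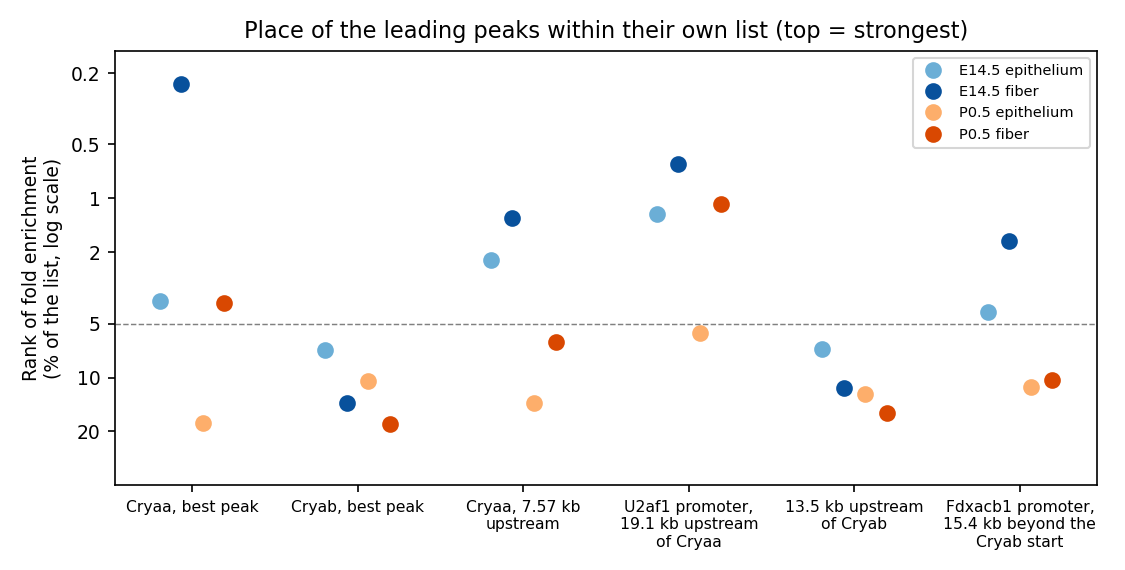
Place of the leading peaks within their own list. The vertical axis is the rank of fold enrichment as a percent of the list on a log scale with the strongest peaks at the top, points are the 4 pooled lists, and the dashed line marks 5%. The best peak of Cryaa runs from 0.229% in E14.5 fiber to 18.0% in P0.5 epithelium, whereas that of Cryab runs from 7.05 to 18.2% in the lists as deposited.

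Merged across the lists at a distance of 10 bp, the peaks of the Cryaa window formed 50 regions. Of these, 30 were called in 1 list, 24 of them in E14.5 fiber alone, 10 in 2 lists, 6 in 3 and 4 in all. E14.5 fiber was the longest list, and with equal numbers of peaks 25 regions were formed, still with 4 called in all lists. The regions called in all 4 lists were the gene with its 3′ flank, the region at -7.57 kb, and the promoters of U2af1 and Cbs. The U2af1 promoter, at -19.1 kb from the Cryaa start, ranked at 1.22, 0.640, 5.61 and 1.08% and was the strongest peak of the window in every list but E14.5 fiber. A region at -13 kb was called in all lists but P0.5 fiber, at 11.5, 11.4 and 39.5%. On the 3′ side, 4 regions between 19.5 and 36.1 kb from the start were called in all lists but P0.5 epithelium. The share called in all lists, 8.0%, stood beside 10.9% of the 185271 merged regions of the genome.

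Cryab was covered less, and in none of the lists from end to end. The gene occupies chr9:50751325-50756636 on the plus strand, 5312 bp with 4 exons. Its 4 curated transcripts use 2 start sites, 3 of them the main site at 50752971 and 1 the site at 50751325, so that the long first intron of the upstream form belongs to the gene body. At E14.5 peaks held 42.4% of its bases in the epithelium and 72.5% in fibers, and at P0.5 they held 20.5% in the epithelium and 17.8% in fibers. In P0.5 fiber it was 8.25% for peaks with a q value under 0.001, 8.87% with predicted transcripts and 10.2% with 2 kb added on each side. In the lists as deposited 558, 262, 635 and 1148 of 19556 genes stood at or above Cryab. From the main start site on, 3666 bp, coverage was 20.9, 60.1, 16.9 and 16.1%, and the stretch before that site overlaps Hspb2.

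**Figure D4:**
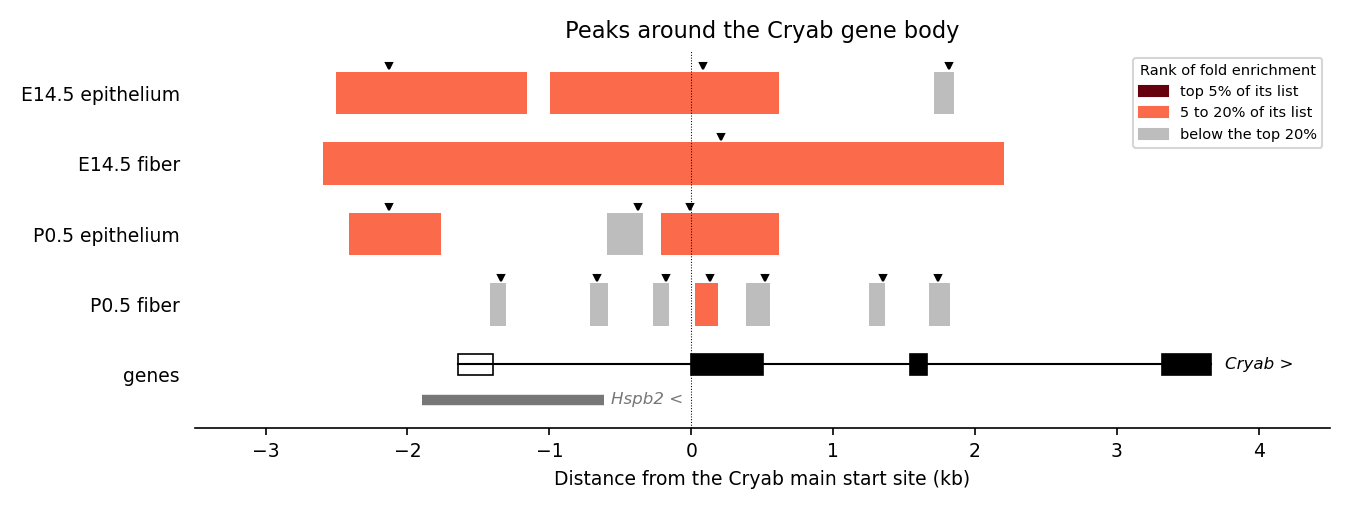
Peaks around the Cryab gene body. The horizontal axis gives the distance from the main start site in kb, each row is 1 pooled list, bars are peaks coloured by rank of fold enrichment, triangles are summits, black boxes are coding exons, the open box is the noncoding first exon of the upstream form, and the grey bar is Hspb2. One peak of 4797 bp spans both promoters in E14.5 fiber, and 7 short peaks lie there in P0.5 fiber.

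In E14.5 fiber a single peak of 4797 bp, chr9:50750377-50755173, covered the 5′ part of Cryab and all of Hspb2. Its summit was 208 bp from the main start site, in the 5′ UTR. In E14.5 epithelium this stretch held separate peaks, of 1614 bp with the summit 80 bp from the main start and of 1345 bp with the summit at -2.13 kb, and a short one of 147 bp in an intron at 1.81 kb. P0.5 epithelium had peaks at nearly the same places, of 835 bp with the summit at -9 bp and of 649 bp at -2.13 kb, with 1 of 255 bp between. In P0.5 fiber there were 7 peaks over the gene, each between 112 and 169 bp wide.

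The 3′ end of Cryab lay outside every peak. Exon 2, which holds the main start site, was covered over 100, 100, 100 and 55.4% of its length. Exon 3 was covered over 100% in E14.5 fiber and 0% in the other lists, and exon 4 over 0% in all of them. The 5 kb after the gene were likewise covered over 0% in each list, where the 5 kb after Cryaa were covered over 93.7, 100, 9.06 and 67.0%. Base by base, 27.5% of the Cryab gene body was in no peak, 27.3% in E14.5 fiber alone and 7.36% in all lists.

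The best peak of Cryab stood outside the top 5% in every list. It was number 7054 (7.05%) of the E14.5 epithelium list, number 17091 (13.8%) of E14.5 fiber, number 6099 (10.4%) of P0.5 epithelium and number 11440 (18.2%) of P0.5 fiber. The list with the widest peak over Cryab, E14.5 fiber, was therefore not the one with the best rank, and at the summit the peak stood at 88, 52, 43 and 13 steps. In P0.5 fiber 2039 peaks shared the value of 13 steps, so that the rank there could be anything from 18.2 to 21.4%. It was 37.2% in P0.5 fiber for peaks with a q value under 0.001, and with equal numbers of peaks it was 29.2% in E14.5 fiber and 12% in E14.5 epithelium. Of 21000 genes, 7256, 11766, 6270 and 10526 had a best peak as strong or stronger.

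The window of Cryab, 105312 bp, held 13, 12, 11 and 15 peaks (13, 11, 10 and 7 of them at a q value under 0.001), covering 7.77, 11.3, 4.04 and 3.29% of it. These shares were exceeded or equalled by 2818, 3094, 2648 and 4370 of 21000 windows, that of Cryab counted in each. Merged, they formed 17 regions, 7 in 1 list, 4 in 2, 1 in 3 and 5 in all 4, and the last made up 29.4%, beside 10.9% of the merged regions of the genome. The 5 were the Cryab and Hspb2 promoters together, a region at -13.5 kb from the main start, the Dixdc1 promoter at -24.9 kb, the shared promoter of 1110032A03Rik and Fdxacb1 at 15.4 kb, and the Alg9 promoter at 22.5 kb. Dixdc1 acts in Wnt signalling and Alg9 is a mannosyltransferase of protein glycosylation. The region at -13.5 kb, within 2 kb of another Dixdc1 start site, ranked at 6.95, 11.5, 12.3 and 15.7%, and the promoter of 1110032A03Rik and Fdxacb1 at 4.32, 1.74, 11.3 and 10.3%.

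Both genes had a peak within 2 kb of a start site in every list, as did 70.3, 71.2, 67.0 and 64.6% of all genes. A promoter peak therefore said little about the alpha crystallins. Just before the main start site they differed, since the 250 bp there were covered over 100, 100, 56.8 and 99.6% at Cryaa and over 100, 100, 85.6 and 36.4% at Cryab. The list with least coverage there was P0.5 epithelium for Cryaa and P0.5 fiber for Cryab.

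**Figure D5:**
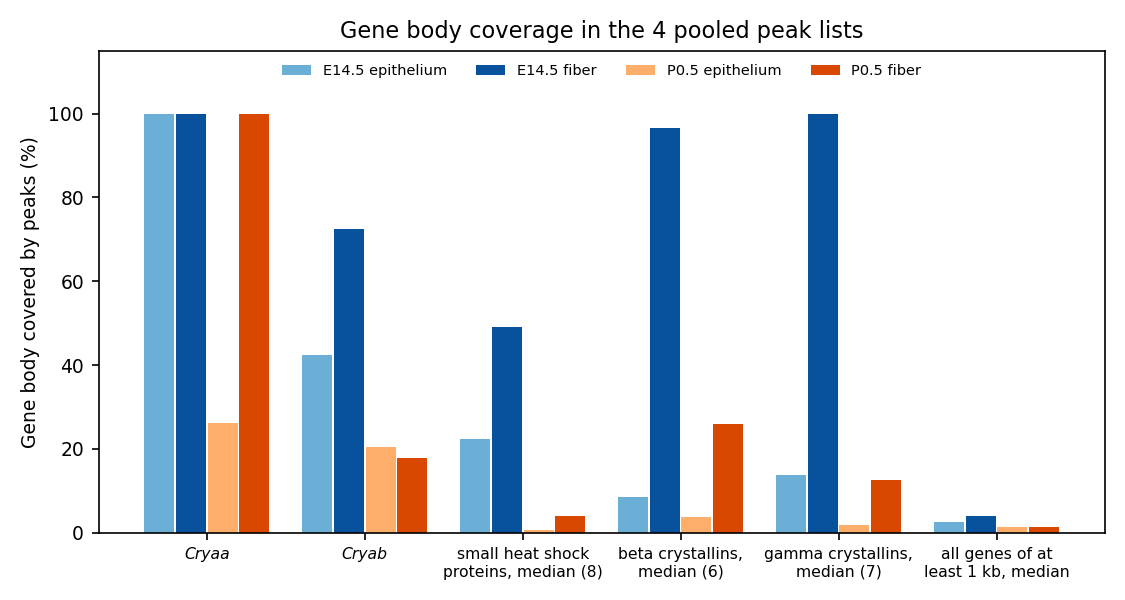
Gene body coverage in the 4 pooled peak lists. Bars give the percent of the gene body inside peaks for Cryaa and Cryab and the median over related gene groups and over all genes of at least 1 kb, with the number of genes in parentheses and no error bars, since each list is 1 pooled call. Cryaa is at 100% in 3 lists, and the beta and gamma crystallin medians are high in E14.5 fiber only.

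Coverage of at least 50% of the gene body was reached by Cryaa in E14.5 epithelium, E14.5 fiber and P0.5 fiber and by Cryab in E14.5 fiber alone. Among all genes it was reached by 1.92, 3.77, 0.353 and 0.542%. The comparisons between lists that follow share lists with each other, and a gene already at 100% cannot rise further.

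Fibers were compared with epithelium first at E14.5. Cryaa was at 100%, the highest possible value, in both, and with 2 kb added on each side it was higher in fibers by 14.4 points. Cryab was higher in fibers by 30.1 percentage points. A gain of at least 20 points was found in 3.14% of genes, and 241 of 19556 gained as much as Cryab or more. With predicted transcripts, which lengthen Cryab, or with 2 kb added on each side, the gain of Cryab was 17.4 or 18.2 points and under that threshold. Over the whole windows, coverage was higher in fibers by 18.8 points at Cryaa, with 81 of 21000 windows at or above it, and by 3.52 points at Cryab, with 3515. The value at Cryaa was 10.8 with equal numbers of peaks and 11.9 with 100 kb on each side, and that at Cryab was 6.13 with 25 kb.

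At P0.5 the genes parted. Cryaa was higher in fibers by 73.8 points and Cryab lower by a difference of -2.67 points. A gain of at least 20 points in fibers was found in 0.793% of genes, and 2 genes gained as much as Cryaa, the other being Tmem200b, named after its value was seen. The median difference over all genes was 0. The size at Cryab moved with the processing, to -12.3 points for peaks with a q value under 0.001. Over the windows, the difference was 7.59 points at Cryaa and -0.746 points at Cryab. With 25 kb on each side these were 14 and -1.87 points, with 100 kb 4.01 and -0.434 points, and at Cryab -1.80 points for peaks with a q value under 0.001.

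From E14.5 to P0.5 the epithelium had less coverage at both genes. Cryaa was higher at E14.5 by 73.8 points and Cryab by 21.8 points. A difference of at least 20 points in this direction was found in 3.34% of genes, 8 genes reached that of Cryaa and 554 that of Cryab. For Cryab it was under the threshold in 3 alternatives, at 19.1 points with equal numbers of peaks, 15.2 with predicted transcripts and 14.7 with 2 kb added on each side. From the main start site on, Cryab was covered over 20.9% in the epithelium of E14.5 and 16.9% in that of P0.5. The larger difference of the whole gene body thus lay mostly in the stretch before that site. Among the 8 genes that reached the difference of Cryaa, again named after their values were seen, was Hspb2. It was at 87.5% in the epithelium of E14.5 and 10.5% in that of P0.5. Most of Hspb2 lies inside the Cryab gene body, so these values and those of Cryab rest partly on the same bases. The list of P0.5 epithelium held fewer peaks, and the median gene was 0.783 points higher at E14.5.

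Fibers of both stages were compared last. Cryaa was at 100%, the highest possible value, at both stages, but with 2 kb added on each side it was higher at E14.5 by 18.3 points, at 97.4% against 79.0%, and the covered share of its window was higher at E14.5 by 29.6 points. Cryab was higher at E14.5 by 54.6 points, which 121 genes reached or passed, and a difference of at least 20 points was found in 7.45% of genes. The P0.5 fiber list, the smallest in covered length at 18.5 Mb, thus still held all of Cryaa but only 948 of 5312 bp of Cryab. Stage and depth of the pooled libraries cannot be told apart in these differences.

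The alpha crystallins were then set beside their relatives. The small heat shock proteins share the alpha crystallin domain, and over 8 of them (Hspb1, Hspb2, Hspb3, Hspb6, Hspb7, Hspb8, Hspb9 and Odf1) the median coverage was 22.3, 49.2, 0.611 and 3.94%. Hspb2 is read in the opposite direction to Cryab, and most of it lies inside the Cryab gene body used here. It was covered over 87.5, 100, 10.5 and 16.5%, in large part by the same bases of the same peaks. Hspb3, used mainly in muscle, was covered over 36.4, 100, 4.99 and 79.8%, and at 781 bp it is short enough for 1 peak to fill it. Hspb9, shorter still at 647 bp, was covered over 100, 100, 0 and 0%. Hspb6 was covered over 27.5, 59.3, 16 and 19.3%. In E14.5 fiber 3 of the 8, Hspb3 among them, were at least 20 points above E14.5 epithelium, beside 3.14% of all genes of 1 kb or longer.

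Beta and gamma crystallins, the other structural proteins of the lens, had lower median coverage than Cryaa in both epithelial lists and in P0.5 fiber, while in E14.5 fiber their medians were close to its 100% or at it. The 6 beta crystallins had medians of 8.46, 96.5, 3.67 and 26.0% and the 7 gamma crystallins of 13.8, 100, 1.89 and 12.5%. In E14.5 epithelium 1 of these 13 genes, Crybb3 at 60.3%, was covered over at least 50%, and in E14.5 fiber 5 of 6 and 6 of 7 were, beside 1.92 and 3.77% of all genes. Higher coverage in E14.5 fiber than in E14.5 epithelium by at least 20 points was found in 5 of 6 and 6 of 7, beside 3.14% of all genes. Of the 13 genes, Crybb3 was also the highest in P0.5 fiber, at 71.2%, so that the full coverage of Cryaa in E14.5 epithelium and P0.5 fiber was reached by none of them.

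Lens regulators, among them factors that act on alpha crystallin promoters, had a promoter peak in every list in 15 of 15 cases, beside 64.6 to 71.2% of all genes. Their gene bodies were covered over a median of 32.6, 59.6, 13.0 and 23.0%, and 7 of 15 were at least 20 points higher in E14.5 fiber than in E14.5 epithelium, beside 3.14% of all genes. Pax6, the master regulator of eye development, was covered over 42.3, 72.9, 17.2 and 16.1%, Sox1 over 54.9, 76.9, 41.7 and 56.7%, and Maf over 35.4, 38.1, 16.4 and 34.6%. Foxe3, which keeps lens epithelium dividing, was covered over 67.0, 79.6, 67.3 and 56.9%. Hsf4, a heat shock factor of the lens, was covered over 25.1, 69.2, 7.30 and 32.1%.

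Likeness to the members was measured as the Euclidean distance over the 4 coverages, in percentage points, across genes of at least 1 kb. The gene nearest to Cryab was Pax6, at a distance of 3.75, followed by Rps21 at 4.67, Vasn at 5.38, Crb2 at 6.48 and Ggn at 6.57. These distances hold for the whole gene body of Cryab, with the stretch before its main start site. From that site on Cryab was covered over 20.9, 60.1, 16.9 and 16.1%, for which no distance was computed. Cryaa had no neighbour as close, and the nearest were Mrps34 at 15.8, Adra2c at 27.5, 4930404N11Rik at 31.2, Znhit2 at 31.3 and Borcs6 at 32.4. Of these, Mrps34 was covered over 88.7, 100, 23.8 and 89.2% but is only 1170 bp long.

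Covered and uncovered DNA of the windows differed in composition. In the Cryaa window, 31.0% of which is masked as repeats, the covered bases were masked over 14.2, 20.3, 2.39 and 9.12%. Their GC content was 54.2, 52.4, 61.0 and 56.1%, against 48.7% for the window. In the Cryab window, of which 26.0% is masked, the covered bases were masked over 7.89, 9.71, 5.92 and 5.13% and had a GC content of 56.9, 54.4, 58.6 and 59.9%, against 45.3%.

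Matches to the MARE core and the heat shock element within 100 bp of the summits are given for both windows. The MARE core was found at 10 of 36, 10 of 44, 3 of 14 and 6 of 22 summits of the Cryaa window. These shares, 27.8, 22.7, 21.4 and 27.3%, stood beside 21.0, 24.7, 18.8 and 18.9% of all summits. In the Cryab window it was found at 2 of 13, 1 of 12, 1 of 11 and 1 of 15 summits, or 15.4, 8.33, 9.09 and 6.67%. The heat shock element GAANNTTC, singled out after its values were seen, was found in the Cryab window at 0 of 13, 2 of 12, 0 of 11 and 3 of 15 summits, beside 3.78, 3.94, 3.68 and 2.97% of all summits. In the Cryaa window it was found at 0 of 36, 1 of 44, 0 of 14 and 0 of 22. Neighbouring summits can share 1 match, and no difference was tested.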

How the data were processed

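ATAC-seq covered 4 groups of 2 libraries. The authors trimmed paired-end reads with Trim Galore 0.4.1, aligned them to mm10 (GRCm38) with Bowtie2 2.3.3.1, filtered them with SAMtools 1.2 and Picard 2.1.1, and ran MACS2 2.1 with a q threshold of 0.05. They deposited 1 list for each group, called on both libraries pooled, without a spread between libraries. The deposited fold enrichment is a ratio of signal at the summit to background. The deposited −log10 p-value ordered peaks in an alternative. The deposited −log10 q-value set a stricter threshold of 0.001 and an alternative ranking. The deposited peak score was not used. Read counts and depths of single libraries are not analysed here, so depth is unknown from these lists and no interval is given.

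Gene bodies came from 45756 curated RefSeq transcripts of GRCm38, based on the C57BL/6J reference. Coverage was the percent of bases inside peaks, for 19556 genes of at least 1 kb. Tied fold enrichments took the lowest rank. Peaks were merged at 10 bp. A call was coverage of at least 50%, a difference of at least 20 points, or a rank in the top 5%. Python 3.11.15, pandas 2.3.3, numpy 2.4.6, pysam 0.24.0, samtools 1.23.1 and matplotlib 3.10.9 were used. On simulated data 500 of 500 loci were correct in each step. Named genes were the members, genes within 50 kb, small heat shock proteins, other crystallins, promoter regulators, cell type markers and the 5 genes nearest in coverage. The members and lists were chosen with earlier results of these data known. Alternatives are given in the closing section.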

Additional observations from a re-analysis of the deposited data

Results flagged for a closer look

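The difference between fibers and epithelium at Cryab had opposite signs at the E14.5 and P0.5 stages. Fiber minus epithelium was 30.1 percentage points of the gene body at E14.5 and -2.67 points at P0.5. The P0.5 difference was small, at 948 covered bp in fibers and 1090 in epithelium, and far under the call of 20 points. From the main start site on, coverage at P0.5 was 16.1% in fibers and 16.9% in epithelium. Over the window of Cryab the differences were 3.52 points at E14.5 and -0.746 points at P0.5. Each value rests on 1 pooled list per group, so the difference between stages was not tested. Of all genes, 1359 of 19556 had a difference at P0.5 as low as that of the Cryab gene body or lower.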

How the results depend on the processing

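No paired analysis was possible because each list pools both libraries of a group, and for the same reason no replicate could be left out. The 70 recomputed main values were mostly differences in coverage between lists. The rest were counts of lists called by rank and of merged regions called in all lists. Of the 70, 41 stayed within the 95% binomial interval over bases, or within 1.5 times for counts, 29 moved outside it and 0 changed sign. All 29 were differences in coverage, of which more moved than stayed. Neighbouring bases are not independent, so this interval is only a yardstick. Widening the gene body by 2 kb gave differences at Cryaa of 14.4 (E14.5 fiber minus epithelium), 64.4 (P0.5 fiber minus epithelium), 68.4 (epithelium, E14.5 minus P0.5) and 18.3 points (fiber, E14.5 minus P0.5), and at Cryab of 18.2, -8.49, 14.7 and 41.3 points in that order. Predicted transcripts lengthened Cryab and gave 17.4, -10.5, 15.2 and 43.1 points. With a q value under 0.001, the Cryab gene body gave -12.3 points at P0.5 and 64.2 points between fibers of the E14.5 and P0.5 stages. With equal numbers of peaks it gave 32.9 points at E14.5 and 19.1 points between epithelia.

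For the Cryaa window, fiber minus epithelium at E14.5 was 17.5 points with a q value under 0.001, 10.8 with equal numbers, 25.5 with 25 kb on each side and 11.9 with 100 kb. At P0.5 it was 6.57 with the stricter q value, 14 with 25 kb and 4.01 with 100 kb. For the Cryab window at E14.5 it was 3.13 with equal numbers and 6.13 with 25 kb, and at P0.5 it was -1.80 with the stricter q value, -0.909 with equal numbers, -1.87 with 25 kb and -0.434 with 100 kb. The cause was not tested, beyond the change of length or of peaks that each alternative makes. Of 120 other recomputed values, for single lists and for the number of merged regions, 36 moved, among them peak numbers in windows of another width. The best peak of Cryaa was in the top 5% of 3 lists, but of 2 with the stricter q value or equal numbers.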
